A study of Homo sapiens with 9 samples.

Results

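The 10 genes TRPM8, TRPM4, TRPM7, TRPM2, TRPV6, TRPV1, TRPV2, TRPC1, PKD1 and PKD2 belong to the transient receptor potential (TRP) family and its polycystin branch, and were followed through an RNA sequencing experiment in VCaP cells in which KMT2C had been lowered. They were chosen by name, with earlier results of these data known, and all 10 were found among the 60612 genes of the deposited table. VCaP is an established human prostate cancer line that expresses the androgen receptor and carries the TMPRSS2-ERG gene fusion, and KMT2C encodes a histone methyltransferase that acts on lysine residues of histone H3 at enhancers. The cells had been transfected for 4 days with KMT2C siRNA 1 or KMT2C siRNA 2 (both labelled KMT2C deficient) or with a control siRNA (labelled KMT2C normal), with 3 libraries in each of the 3 groups. All cells were kept in serum-containing medium. The experiment thus covers a single cell line and a transient, incomplete lowering of the transcript, and nothing in the labels says that the libraries of a group came from separate cultures, so the p-values measure spread between these samples that may be technical.

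TRP channels are cation channels of the plasma membrane and of internal membranes, and most let calcium through in response to temperature, chemical ligands, lipids, stretch or the filling state of calcium stores. In the prostate the family is known above all for TRPM8, the receptor for cold and menthol, whose transcript is abundant in luminal epithelium and depends on androgen signalling, and for TRPV6, a highly calcium-selective channel. The polycystins PKD1 and PKD2, mutated in polycystic kidney disease, form a receptor and channel complex of the same superfamily.

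Library totals ranged from 58462215 to 70726213 estimated counts. KMT2C itself was measured at 1.54, 1.80 and 2.28 FPKM (sequenced fragments per kilobase of transcript, corrected for library depth) with siRNA 1, at 1.72, 1.64 and 1.73 FPKM with siRNA 2, and at 13.7, 12.1 and 12.9 FPKM in control cells. The mean was thus 14.5% of the control mean with siRNA 1 and 13.1% with siRNA 2. Mitochondrial genes took 9.02% ± 0.698 of the counts with siRNA 1, 12.05% ± 0.119 with siRNA 2 and 10.6% ± 0.501 in control cells (SD, n = 3 each). All 10 luminal prostate markers examined were above 1 FPKM, with summed levels of 925 to 950 FPKM with siRNA 1, 881 to 921 with siRNA 2 and 1656 to 1758 in control cells. In edgeR's test, 6 of these 10 fell with siRNA 1, and 8 fell and 1 rose with siRNA 2, while of all tested genes 20.5% were lower with siRNA 1 and 24.9% with siRNA 2. Markers of immune cells, endothelium, retina and sensory neurons stayed below 0.4 FPKM in sum in every library, with CD3E, CRX, RCVRN, SCN10A and ISL1 without counts, although the series' design text calls the RNA retinal. The 3 basal prostate markers summed to 6.27 to 7.86 FPKM with siRNA 1, 0.719 to 0.886 with siRNA 2 and 2.38 to 2.63 in control cells, with KRT14 the single marker above 1 FPKM. The 4 stromal markers summed to 2.36 to 3.80 FPKM with siRNA 1, 1.80 to 3.04 with siRNA 2 and 2.11 to 3.23 in control cells. The part of these shifts in the values below was not tested.

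The channels were expressed at low to moderate levels in VCaP cells, and TRPM8 led in all 3 groups. Summed over the 10 genes, the level was 27.0 ± 0.441 FPKM with siRNA 1, 27.9 ± 0.747 with siRNA 2 and 32.3 ± 0.913 in control cells (SD, n = 3 each). TRPM8 supplied 28.0% of this sum with siRNA 1, 25.9% with siRNA 2 and 33.4% in control cells. In control cells the order by FPKM, which corrects for transcript length, was TRPM8, TRPM4, TRPM7, PKD2, TRPM2, TRPV6, PKD1, TRPV1, TRPC1 and TRPV2. Neighbours overlapped in their libraries at PKD2 with TRPM2 and at TRPM2 with TRPV6. With siRNA 1, TRPV6 stood eighth by its mean, its libraries overlapping those of TRPV1. With siRNA 2, PKD2 stood second, its libraries overlapping those of TRPM4. The lowest pair in each group was TRPC1 and TRPV2.

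**Figure D1:**
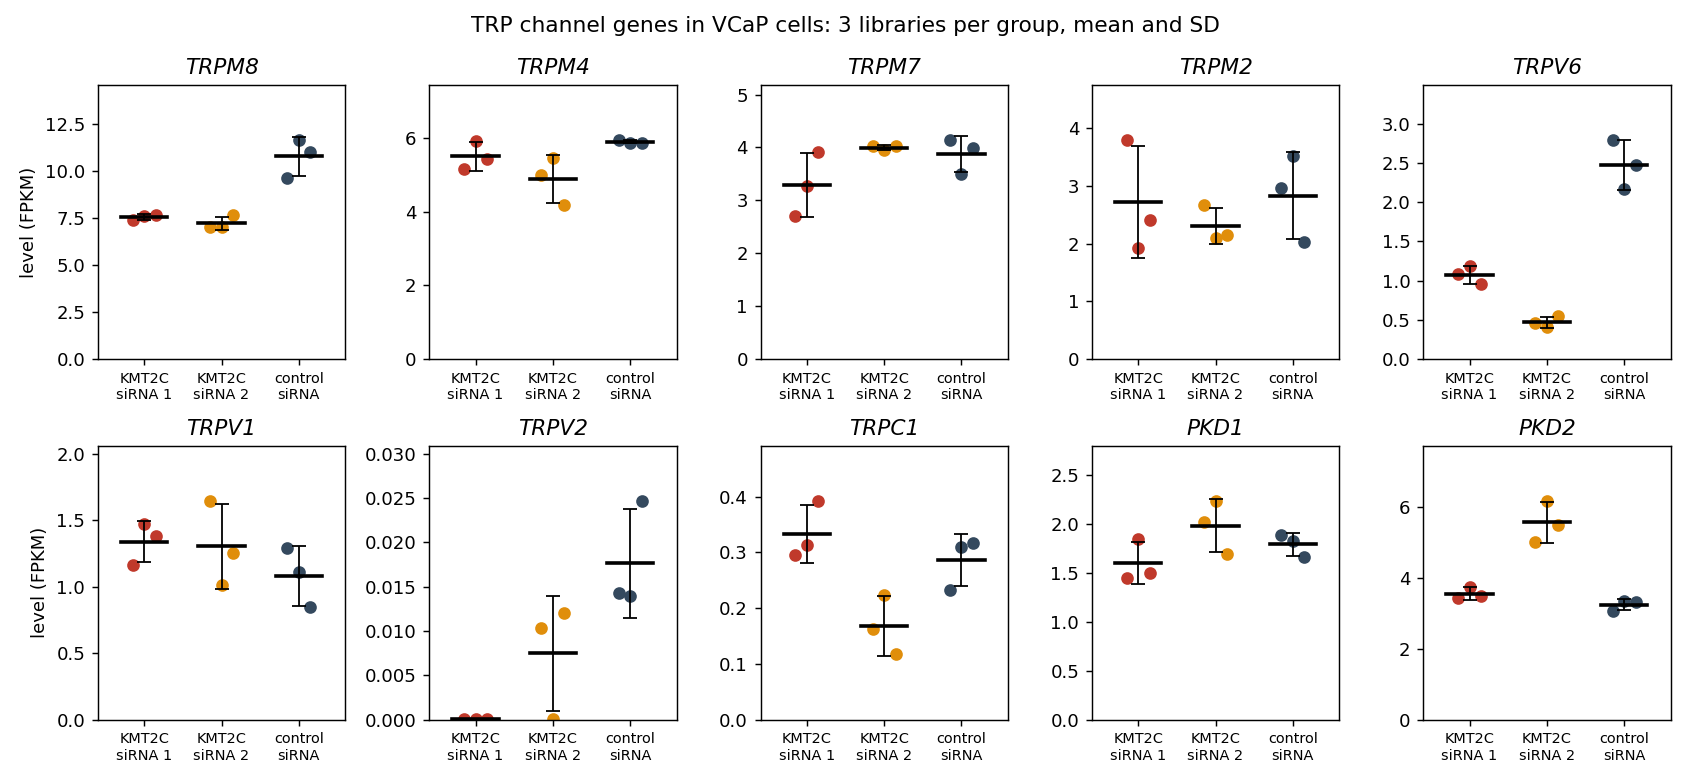
Level of each of the 10 TRP channel genes in FPKM, in a panel per gene whose axis starts at 0, with 1 point per library for KMT2C siRNA 1, KMT2C siRNA 2 and control siRNA (left to right) and lines for mean and SD (n = 3). The axes differ between panels: TRPM8 reaches 11.7 FPKM and TRPV2 stays below 0.03, while TRPV6 shows 3 separate groups of points.

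Genes with at least 1 FPKM in at least 3 libraries were tested, which kept 8 of the 10 channels and left out TRPC1 and TRPV2. With siRNA 1, 2 of the 8 fell (TRPM8 and TRPV6), none rose and 6 did not pass edgeR's quasi-likelihood test at a Benjamini-Hochberg adjusted p under 0.05. Of all 12830 genes tested, 41.7% passed in that comparison, 20.5% as lower and 21.2% as higher. With siRNA 2, 3 of the 8 fell (TRPM8, TRPV6 and TRPM4), 1 rose (PKD2) and 4 did not pass, against 49.3% of all tested genes, of which 24.9% were lower and 24.4% higher. TRPM8 and TRPV6 were lower with each siRNA, as were 12.6% of all tested genes, while 13.2% were higher with each. Counted in either direction, the share of channels called was below that of all genes with siRNA 1 and near it with siRNA 2, and with 8 channels nothing particular to them is read from these counts. The median log2 fold change of the 8 channels was -0.16 with siRNA 1 and -0.17 with siRNA 2, against 0.0128 with siRNA 1 and 0.0222 with siRNA 2 over all tested genes. Both comparisons use the same 3 control libraries.

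**Figure D2:**
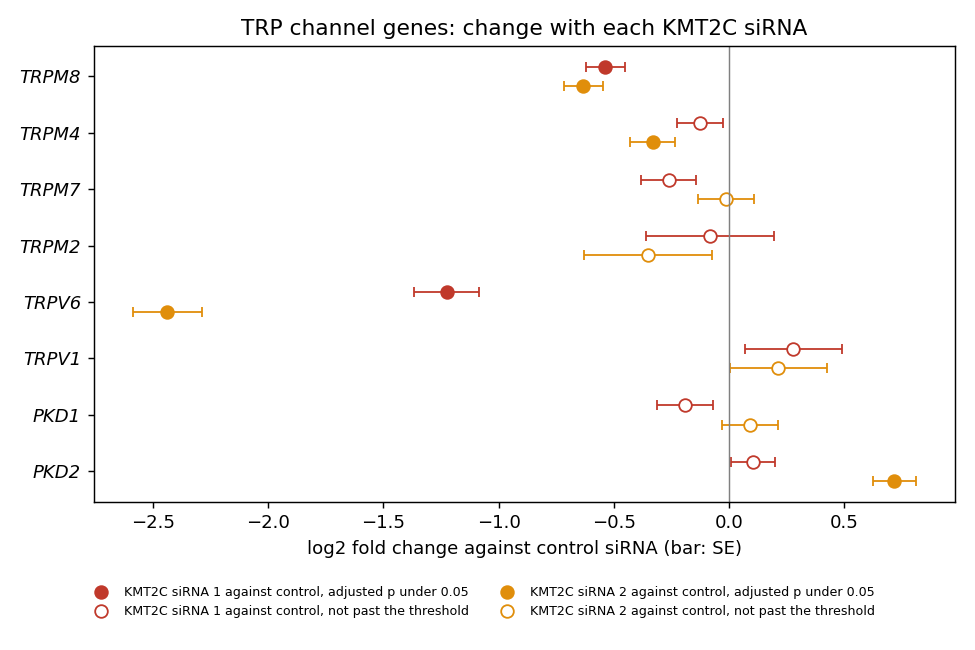
Log2 fold change of the 8 tested channels against control siRNA (x axis) with its standard error, with siRNA 1 above siRNA 2 for each gene and filled points where the adjusted p was under 0.05. TRPM8 and TRPV6 lie left of 0 with both siRNAs, and TRPV6 (-1.23 with siRNA 1, -2.44 with siRNA 2) and PKD2 (0.10 with siRNA 1, 0.72 with siRNA 2) differ between the siRNAs.

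TRPM8 (ENSG00000144481, GRCh38 chromosome 2, 233917373 to 234019522, plus strand), the cold and menthol receptor, was lower with both siRNAs. It was measured at 7.39, 7.62 and 7.68 FPKM with siRNA 1, at 7.02, 7.02 and 7.63 with siRNA 2, and at 9.63, 11.7 and 11.0 in control cells. Every knockdown library was below every control library, and the libraries of the 2 knockdowns overlapped. The group means were 7.56 ± 0.149 FPKM with siRNA 1, 7.22 ± 0.355 with siRNA 2 and 10.8 ± 1.04 in control cells (SD, n = 3 each), which left 70.2% of the control level with siRNA 1 and 67.1% with siRNA 2. On the log2 scale the change was -0.54 ± 0.08 (SE) for siRNA 1 (edgeR adjusted p = 0.00124) and -0.63 ± 0.08 with siRNA 2 (edgeR adjusted p = 0.000332), that is 1.45-fold lower with siRNA 1 and 1.55-fold lower with siRNA 2. The difference of siRNA 1 minus siRNA 2, 0.10 ± 0.08, did not pass the test (edgeR adjusted p = 0.403). In RNA from a whole culture, fewer cells that express a gene and less RNA per cell cannot be told apart. The luminal marker sum given above moved in the same direction as TRPM8 in both knockdowns, and its part in the TRPM8 values was not tested.

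TRPV6 (ENSG00000165125, chromosome 7, 142871208 to 142885745, minus strand), the calcium-selective channel best known from calcium uptake in the gut, had the largest fold change of the 8 tested channels. Its libraries read 1.08, 1.19 and 0.956 FPKM with siRNA 1, at 0.463, 0.407 and 0.546 with siRNA 2, and at 2.80, 2.17 and 2.48 in control cells. The 3 groups were separate, with siRNA 2 lowest and control highest. Means were 1.08 ± 0.117 FPKM for siRNA 1, 0.472 ± 0.0699 for siRNA 2 and 2.48 ± 0.317 for control (SD, n = 3 each), or 43.4% of the control level with siRNA 1 and 19.0% with siRNA 2. Against control the log2 changes came to -1.23 ± 0.14 for siRNA 1 (edgeR adjusted p = 0.000259) and -2.44 ± 0.15 with siRNA 2 (edgeR adjusted p = 4.17e-06), or 2.34-fold lower with siRNA 1 and 5.42-fold lower with siRNA 2. The siRNAs differed between themselves, by a log2 difference of 1.21 ± 0.14 for siRNA 1 minus siRNA 2 (edgeR adjusted p = 0.000264). TRPV6 met the filter through its 3 control libraries and 2 of siRNA 1, the groups in which it was higher.

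PKD2 (ENSG00000118762, chromosome 4, 88007635 to 88077777, plus strand) encodes polycystin-2, a cation channel of primary cilia and the endoplasmic reticulum. Levels were 3.43, 3.75 and 3.48 FPKM with siRNA 1, at 5.00, 6.17 and 5.49 with siRNA 2, and at 3.06, 3.34 and 3.33 in control cells. The siRNA 2 libraries were above all others, and those of siRNA 1 lay just above control without overlap. The log2 fold change was 0.72 ± 0.10 with siRNA 2 (edgeR adjusted p = 0.000312), 1.65-fold higher, whereas with siRNA 1 it was 0.10 ± 0.09 and did not pass (edgeR adjusted p = 0.41). The direct difference of siRNA 1 minus siRNA 2 was -0.61 ± 0.09 (edgeR adjusted p = 0.00114). In that comparison of the siRNAs 2 of the 8 channels passed, TRPV6 as higher and PKD2 as lower with siRNA 1, against 39.5% of all tested genes (20.6% higher, 18.9% lower). The median log2 difference was 0.08 over the channels and 0.00321 over all tested genes.

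The sequences upstream of the 3 channels that passed most clearly are shown because their base composition sets them apart from each other. Each line gives the 250 bases before the RefSeq transcription start (GRCh38.p14), read 5′ to 3′ on the gene's strand, and capitals mark the motif matches named below, with positions counted back from the start.
TRPM8: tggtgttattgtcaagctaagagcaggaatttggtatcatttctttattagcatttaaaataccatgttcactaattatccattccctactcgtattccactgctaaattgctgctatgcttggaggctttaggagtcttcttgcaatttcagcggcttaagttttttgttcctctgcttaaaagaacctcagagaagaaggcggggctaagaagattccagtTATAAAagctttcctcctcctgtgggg
TRPV6: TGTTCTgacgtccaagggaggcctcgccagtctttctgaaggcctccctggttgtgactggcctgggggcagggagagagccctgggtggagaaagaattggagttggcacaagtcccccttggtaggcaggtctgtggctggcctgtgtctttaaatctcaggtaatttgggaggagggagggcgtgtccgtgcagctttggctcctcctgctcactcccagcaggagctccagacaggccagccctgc
PKD2: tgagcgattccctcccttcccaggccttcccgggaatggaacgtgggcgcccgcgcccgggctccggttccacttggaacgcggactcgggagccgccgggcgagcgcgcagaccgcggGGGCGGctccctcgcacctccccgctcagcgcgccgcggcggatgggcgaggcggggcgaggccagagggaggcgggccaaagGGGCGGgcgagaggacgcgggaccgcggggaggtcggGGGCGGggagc
The windows lie at chr2:233917123-233917372 on the plus strand for TRPM8, chr7:142885746-142885995 on the minus strand for TRPV6 and chr4:88007385-88007634 on the plus strand for PKD2, and each ends where the gene's span in the deposited table begins. RefSeq windows were found for 9 of the 10 channels. TRPM8 has 6 windows, of which the one ending at the deposited start is shown.

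The TRPM8 window is AT-rich, with a GC content of 40%, and 86.6% of the 35116 RefSeq windows of this length have a higher one. It holds 3 CpG sites, an observed over expected CpG ratio of 0.3, and a TATA box at position -27. The TRPV6 window has a GC content of 60.4% and 4 CpG sites, a ratio of 0.179 that 79.8% of windows exceed, and an androgen receptor half-site at position -250. The PKD2 window is of the CpG island kind, with a GC content of 78.4%, 38 CpG sites, a ratio of 1.01 that 7.71% of windows exceed, and GC boxes at positions -131, -48 and -11. Among the other channels, TRPV1 had a ratio of 0.343, TRPM4 of 0.611, TRPC1 of 0.631, TRPM2 of 0.89, PKD1 of 0.893 and TRPM7 of 1.21, against a median of 0.558 over all windows. TRPV6 and TRPM8 have the 2 lowest ratios of the 9 channels with a window, followed by TRPV1, which did not pass with either siRNA. The TRPM8 ratio is exceeded by 66.9% of windows. A link between these ratios and the response to the siRNAs was not tested. The motifs searched on both strands were the androgen receptor half-site TGTTCT or AGAACA (in 12.4% of all windows), the nuclear receptor half-site AGGTCA or TGACCT (12.1%), the ETS core CCGGAA or TTCCGG (14.5%), the GC box GGGCGG or CCGCCC (42.6%) and the TATA box TATAAA or TTTATA (10.7%). A match describes letters in a window and is not evidence of binding.

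TRPM4 (ENSG00000130529, chromosome 19, 49157741 to 49211836, plus strand) encodes a calcium-activated channel that carries sodium and potassium but not calcium. The libraries read 5.15, 5.93 and 5.43 FPKM with siRNA 1, at 4.98, 5.46 and 4.18 with siRNA 2, and at 5.95, 5.88 and 5.88 in control cells. All siRNA 2 libraries were below control, and the lowest of them, replicate 3, was the furthest from it. The log2 fold change was -0.33 ± 0.10 with siRNA 2 (edgeR adjusted p = 0.0221), 1.26-fold lower, and -0.13 ± 0.10 with siRNA 1 (edgeR adjusted p = 0.344). The siRNA 2 call was near the threshold and was lost in 6 of 19 alternative analyses, among them those without siRNA 2 replicate 3 (log2 fold change -0.23, edgeR adjusted p = 0.054) and without control replicate 1, 2 or 3 (adjusted p = 0.0509, 0.0553 and 0.0544). The adjusted p was between 0.00731 and 0.0801 over the 19 alternatives. The difference of siRNA 1 minus siRNA 2 was 0.21 ± 0.10 and did not pass (edgeR adjusted p = 0.135).

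TRPM7 (ENSG00000092439, chromosome 15, 50552473 to 50686797, minus strand), a magnesium- and zinc-permeable channel fused to a kinase domain, did not pass in any comparison. It was measured at 2.71, 3.27 and 3.91 FPKM with siRNA 1, at 4.02, 3.95 and 4.02 with siRNA 2, and at 4.15, 3.50 and 3.99 in control cells. Replicate 1 of siRNA 1 was the lowest library and siRNA 1 overlapped control. The log2 fold change was -0.26 ± 0.12 with siRNA 1 (edgeR adjusted p = 0.118) and -0.01 ± 0.12 with siRNA 2 (edgeR adjusted p = 0.95), and the difference of siRNA 1 minus siRNA 2 was -0.25 ± 0.12 (edgeR adjusted p = 0.138). Without siRNA 1 replicate 3, its highest library, TRPM7 passed against control (log2 fold change -0.41, edgeR adjusted p = 0.0163) and against siRNA 2 (-0.39, edgeR adjusted p = 0.0209). Leaving out 1 library at a time gave -0.41 to -0.15 against control, with edgeR adjusted p up to 0.281. Against siRNA 2 the range was -0.39 to -0.14, with edgeR adjusted p up to 0.326.

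TRPM2 (ENSG00000142185, chromosome 21, 44350163 to 44443081, plus strand), a channel opened by ADP-ribose and oxidative stress, was the most variable of the tested channels. It was measured at 3.80, 1.93 and 2.42 FPKM with siRNA 1, at 2.67, 2.10 and 2.15 with siRNA 2, and at 2.96, 3.51 and 2.03 in control cells. The 3 groups overlapped. The log2 fold changes were -0.08 ± 0.28 with siRNA 1 (edgeR adjusted p = 0.841) and -0.35 ± 0.28 with siRNA 2 (edgeR adjusted p = 0.326), with SEs well above the 0.08 of TRPM8. TRPM2-AS, an antisense transcript that lies within TRPM2 on the other strand and shares no exonic base with it in GENCODE release 29, rose with siRNA 1. This transcript was at 4.00, 3.91 and 3.50 FPKM with siRNA 1, 2.37, 2.83 and 2.96 with siRNA 2 and 2.08, 2.09 and 2.29 in control cells, and its log2 fold changes were 0.80 ± 0.13 for siRNA 1 (edgeR adjusted p = 0.00136) and 0.28 ± 0.13 for siRNA 2 (edgeR adjusted p = 0.0984). Whether counting used strand is not given. Reads in the annotated exons of the pair are separated by position, and reads outside them cannot be told apart without strand.

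TRPV1 (ENSG00000196689, chromosome 17, 3565444 to 3597098, minus strand), the capsaicin and heat receptor of sensory neurons, was measured at 1.17, 1.47 and 1.38 FPKM with siRNA 1, at 1.65, 1.01 and 1.25 with siRNA 2, and at 1.29, 1.11 and 0.845 in control cells. The groups overlapped. Its log2 fold changes were 0.28 ± 0.21 with siRNA 1 (edgeR adjusted p = 0.324) and 0.21 ± 0.21 with siRNA 2 (edgeR adjusted p = 0.437).

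PKD1 (ENSG00000008710, chromosome 16, 2088708 to 2135898, minus strand), which encodes the receptor-like polycystin-1, was measured at 1.45, 1.84 and 1.50 FPKM with siRNA 1, at 2.01, 2.24 and 1.69 with siRNA 2, and at 1.89, 1.82 and 1.66 in control cells. Its groups overlapped, and unlike its partner PKD2 it did not pass with siRNA 2. The log2 fold changes were -0.19 ± 0.12 with siRNA 1 (edgeR adjusted p = 0.249) and 0.09 ± 0.12 with siRNA 2 (edgeR adjusted p = 0.568). The difference of siRNA 1 minus siRNA 2, -0.28 ± 0.12 (edgeR adjusted p = 0.101), passed without siRNA 1 replicate 2 (-0.39, edgeR adjusted p = 0.0407) or without siRNA 2 replicate 3 (-0.38, edgeR adjusted p = 0.0411). Leaving out 1 library at a time gave -0.39 to -0.19, with edgeR adjusted p up to 0.301. PKD1 is an uncertain measurement for 2 reasons. TSC2, on the other strand, shares 778 exonic bases with it and fell with siRNA 1 (log2 fold change -0.61, edgeR adjusted p = 0.00623), and the near-identical copies PKD1P1, PKD1P5 and PKD1P6 were at mean levels of 1.14 to 3.48 FPKM. How the authors' counting shared reads among these genes is not given.

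The 2 untested channels were the lowest, TRPC1 below 0.4 FPKM in every library and TRPV2 close to the detection limit. TRPC1 (ENSG00000144935, chromosome 3, 142724034 to 142807888, plus strand), a subunit of receptor- and store-operated channels, had 0.296, 0.312 and 0.393 FPKM with siRNA 1, 0.162, 0.224 and 0.118 with siRNA 2, and 0.232, 0.309 and 0.318 in control cells. The siRNA 2 libraries were lower than all others without overlap. With no filter on low values the TRPC1 log2 fold change was -0.86 ± 0.30 with siRNA 2 (edgeR adjusted p = 0.0724), and with the filterByExpr rule it was -0.88 ± 0.28 (edgeR adjusted p = 0.0364), so the call depends on the filter. TRPV2 (ENSG00000187688, chromosome 17, 16415571 to 16437003, plus strand), a stretch- and heat-activated channel, had 0, 0 and 0 counts with siRNA 1, 3, 0 and 4 with siRNA 2, and 4, 4 and 8 in control cells. Taking about 4 counts as 1 fragment, which is an approximation, these are no more than about 4 fragments in any group. The 0 counts with siRNA 1 allow a mean of up to 0.0132 FPKM for 3 fragments over the group. This limit rests on the same approximation and covers counting error only, and no difference was detectable at this depth.

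The profile of TRPM8 over the 9 libraries was set against those of all tested genes, the other tested channels included. Likeness was taken as the root mean square difference in log2 counts scaled to an equal library size (log2 CPM), after centring each gene on the mean of its 3 group means, so that 0 is an identical profile. The 5 nearest were picked among tested genes whose symbol is no clone, assembly or LINC identifier. They were PPP6R3 (0.0623), a regulatory subunit of protein phosphatase 6, C5orf15 (0.0724) and the tyrosine phosphatase PTP4A1 (0.0760). The others were the sorting nexin SNX5 (0.0771) and the ubiquitin ligase TRIM13 (0.0812). Being picked as the nearest, these 5 could not lie further from TRPM8 than the channels. The size of a change counts in this measure as well as its direction. The median over all tested genes was 0.427 and the 1st percentile 0.131. PPP6R3, as an example, had 19.2, 21.0 and 21.4 FPKM with siRNA 1, 20.2, 21.5 and 21.4 with siRNA 2 and 28.3, 32.5 and 32.1 in control cells. Of the channels, TRPM4 was nearest at 0.226 (rank 1275 of the tested genes) and TRPV6 furthest at 0.769 (rank 11160), with TRPM7 at 0.305, PKD1 at 0.342, TRPM2 at 0.377, TRPV1 at 0.471 and PKD2 at 0.557. TRPV6 moved the same way as TRPM8 but by a larger amount.

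**Figure D3:**
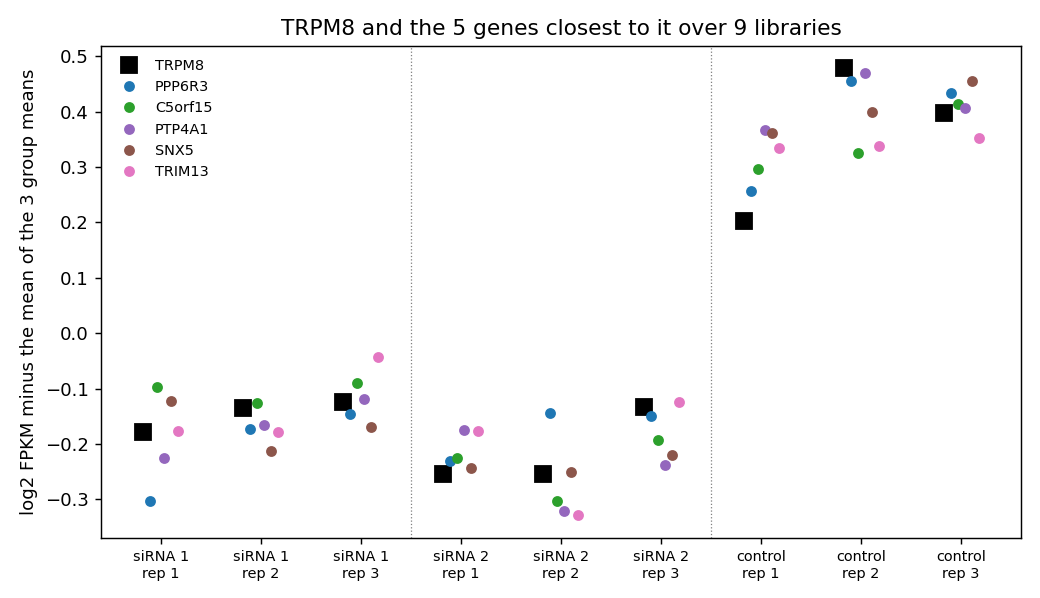
Log2 FPKM, minus the mean of the 3 group means, in each of the 9 libraries (KMT2C siRNA 1, KMT2C siRNA 2, control siRNA, left to right). Shown are TRPM8 and the 5 tested genes with the most similar profile, clone, assembly and LINC identifiers left out. All 6 genes are below their centre in the knockdown libraries and above it in the control libraries, and they were selected for this likeness.

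The rest of the TRP family was nearly silent in these cells. Of 22 further family members, 20 were below 1 FPKM in every library, and TRPM1, TRPC4, TRPC5, TRPC6 and PKD2L1 were among those with no counts in any library. The 2 tested members were mucolipins, channels of lysosomes and endosomes. MCOLN1 fell with both siRNAs, at 3.01, 2.96 and 3.47 FPKM with siRNA 1, 3.42, 3.10 and 3.08 with siRNA 2 and 4.63, 4.26 and 5.24 in control cells. Its log2 fold changes were -0.60 ± 0.11 for siRNA 1 (edgeR adjusted p = 0.0027) and -0.61 ± 0.11 for siRNA 2 (edgeR adjusted p = 0.00192). MCOLN2 rose with siRNA 1 and not with siRNA 2, with 1.20, 1.56 and 1.29 FPKM under siRNA 1, 0.499, 0.555 and 0.482 under siRNA 2 and 0.644, 0.561 and 0.718 in control cells. Its log2 fold changes were 1.04 ± 0.16 for siRNA 1 (edgeR adjusted p = 0.00121) and -0.38 ± 0.16 for siRNA 2 (edgeR adjusted p = 0.0832), and siRNA 1 minus siRNA 2 was 1.42 ± 0.17 (edgeR adjusted p = 0.000235). MCOLN2 reached the 1 FPKM minimum only in the siRNA 1 libraries, through which it entered the test.

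Among genes of store-operated calcium entry and the calcium stores, 10 of 12 were tested. With siRNA 1, 1 rose and 2 fell, with siRNA 2, none rose and 3 fell, both below the shares of all tested genes called (41.7% for siRNA 1, 49.3% for siRNA 2). The median log2 fold change was -0.17 for siRNA 1 and -0.25 for siRNA 2, against 0.0128 (siRNA 1) and 0.0222 (siRNA 2) over all tested genes. ITPR1, a calcium release channel of the endoplasmic reticulum, was measured at 1.51, 2.19 and 2.26 FPKM with siRNA 1, at 1.11, 1.17 and 1.01 with siRNA 2 and at 3.61, 3.21 and 4.12 in control cells, the 3 groups being separate. Its log2 fold changes were -0.90 ± 0.15 for siRNA 1 (edgeR adjusted p = 0.00178) and -1.79 ± 0.16 for siRNA 2 (edgeR adjusted p = 2.84e-05). ATP2C1, the calcium pump of the Golgi, fell with both, at log2 fold changes of -0.49 ± 0.06 for siRNA 1 (edgeR adjusted p = 0.000523) and -0.79 ± 0.07 for siRNA 2 (edgeR adjusted p = 2.04e-05). ITPR3, a second release channel, rose with siRNA 1 (0.81 ± 0.15, edgeR adjusted p = 0.00244) and fell with siRNA 2 (-0.49 ± 0.15, edgeR adjusted p = 0.0208). That siRNA 2 call was lost without siRNA 2 replicate 2 or 3 (adjusted p = 0.0606 and 0.0581) and without control replicate 1 or 2 (adjusted p = 0.0528 and 0.0709). It was also lost with limma on log2(FPKM + 1) (adjusted p = 0.053). The pore subunits ORAI1 and ORAI2 and the store sensor STIM1 did not pass with either siRNA. The pore subunit ORAI3 was measured at 3.45, 2.64 and 1.93 FPKM with siRNA 1, at 1.54, 0.307 and 1.70 with siRNA 2 and at 2.81, 2.96 and 3.05 in control cells. Its siRNA 2 libraries were all below control, replicate 2 by far the lowest, and the log2 fold change of -1.36 ± 0.52 missed the threshold (edgeR adjusted p = 0.0568). It passed without siRNA 2 replicate 2 (-0.91, edgeR adjusted p = 0.0185) or replicate 3 (-1.72, edgeR adjusted p = 0.0488), and the adjusted p was between 0.0111 and 0.113 over 19 alternatives.

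Of the 15 genes listed for calcium removal and buffering, 8 were tested, 3 of which fell with siRNA 1 and 4 with siRNA 2, with none higher in either. The list also holds S100A10 and ANXA2, described below as partners of TRPV channels. Both are among the genes that fell with siRNA 1, and S100A10 is among those that fell with siRNA 2. These counts and the median are thus not of removal and buffering genes alone. Of all tested genes 20.5% were lower with siRNA 1 and 24.9% with siRNA 2, and 41.7% with siRNA 1 and 49.3% with siRNA 2 were called in either direction. The median was -0.36 for siRNA 1 and -0.30 for siRNA 2, against 0.0128 (siRNA 1) and 0.0222 (siRNA 2) over all tested genes. S100A10, which in mouse binds TRPV5 and TRPV6 together with ANXA2 and carries them to the membrane, was measured at 135, 114 and 120 FPKM with siRNA 1, at 87.7, 83.7 and 92.3 with siRNA 2 and at 291, 297 and 359 in control cells. Like TRPV6, it was lowest with siRNA 2 and highest in control, with no overlap. Its log2 fold changes were -1.39 ± 0.11 for siRNA 1 (edgeR adjusted p = 3.52e-05) and -1.90 ± 0.11 for siRNA 2 (edgeR adjusted p = 3e-06). ANXA2 fell with siRNA 1 (-1.11 ± 0.14, edgeR adjusted p = 0.000356) and had a log2 fold change of 0.25 ± 0.14 with siRNA 2 (edgeR adjusted p = 0.154). The siRNA 2 change passed as higher without control replicate 3 (0.41, edgeR adjusted p = 0.0206). Leaving out 1 library at a time gave 0.11 to 0.41, with edgeR adjusted p up to 0.396. SLC8B1, the mitochondrial sodium and calcium exchanger, fell with siRNA 1 (-0.74 ± 0.16, edgeR adjusted p = 0.00543) and siRNA 2 (-0.96 ± 0.16, edgeR adjusted p = 0.00108), and entered the test through the 3 control libraries and 1 of siRNA 1. CALM3, a calmodulin gene, fell with siRNA 2 (-1.28 ± 0.26, edgeR adjusted p = 0.00339) and had 0.26 ± 0.26 with siRNA 1 (edgeR adjusted p = 0.448). The plasma membrane pump ATP2B1 had -0.25 ± 0.08 with siRNA 2 (edgeR adjusted p = 0.036), a call lost without siRNA 2 replicate 1, 2 or 3 (adjusted p = 0.0705, 0.11 and 0.0676) or control replicate 1 or 2 (0.0665 and 0.12). It was also lost with the replicate block (adjusted p = 0.067), with upper quartile scaling (0.16) and with limma on log2(FPKM + 1) and log2(FPKM + 0.1) (0.102 and 0.101).

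Of 26 listed regulators and partners of TRP channels, 20 were tested, and calls went in both directions. With siRNA 1, 6 rose and 2 fell, near the 41.7% of all tested genes called there. With siRNA 2, 7 rose and 8 fell, against 49.3% of all tested genes. The median log2 fold change was 0.15 for siRNA 1 and -0.12 for siRNA 2, against 0.0128 (siRNA 1) and 0.0222 (siRNA 2) over all tested genes. TCAF1, a partner of TRPM8 that promotes its presence at the membrane, was measured at 28.2, 32.5 and 31.9 FPKM with siRNA 1, at 21.2, 21.5 and 20.7 with siRNA 2 and at 27.0, 27.5 and 26.1 in control cells. It fell with siRNA 2, at -0.40 ± 0.06 (edgeR adjusted p = 0.00059). With siRNA 1 its change of 0.17 ± 0.06 was just past the threshold (edgeR adjusted p = 0.0437), and the call was lost in 14 of 19 alternatives. It was lost without any one of 8 libraries, all except siRNA 1 replicate 1 (adjusted p = 0.0619 to 0.128). The call was also lost with DESeq2 (0.0563), DESeq2 size factors (0.062), filterByExpr (0.0832), no filter (0.0953), the 2 groups alone (0.109) and the replicate block (0.062). NEDD4L, a ubiquitin ligase for membrane channels, fell with siRNA 1 (-1.90 ± 0.12, edgeR adjusted p = 1.14e-05) and siRNA 2 (-0.94 ± 0.11, edgeR adjusted p = 0.000185). FKBP5, an immunophilin and androgen-responsive gene, rose with siRNA 1 (1.02 ± 0.07, edgeR adjusted p = 2.17e-05) and siRNA 2 (1.55 ± 0.07, edgeR adjusted p = 1.11e-06). HOMER1, a scaffold that links TRPC channels to calcium stores, rose with siRNA 1 (1.50 ± 0.14, edgeR adjusted p = 0.000106) and siRNA 2 (0.53 ± 0.14, edgeR adjusted p = 0.0145), and entered the test through the 3 siRNA 1 libraries, the only ones in which it reached 1 FPKM. Its siRNA 2 call was lost with limma on log2(FPKM + 1) (0.20, adjusted p = 0.0611). The magnesium transport gene CNNM2 fell with siRNA 1 (-1.11 ± 0.09) and siRNA 2 (-0.82 ± 0.09), and the phospholipase PLCG1 rose with siRNA 1 (0.35 ± 0.05) and siRNA 2 (0.60 ± 0.05).

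**Figure D4:**
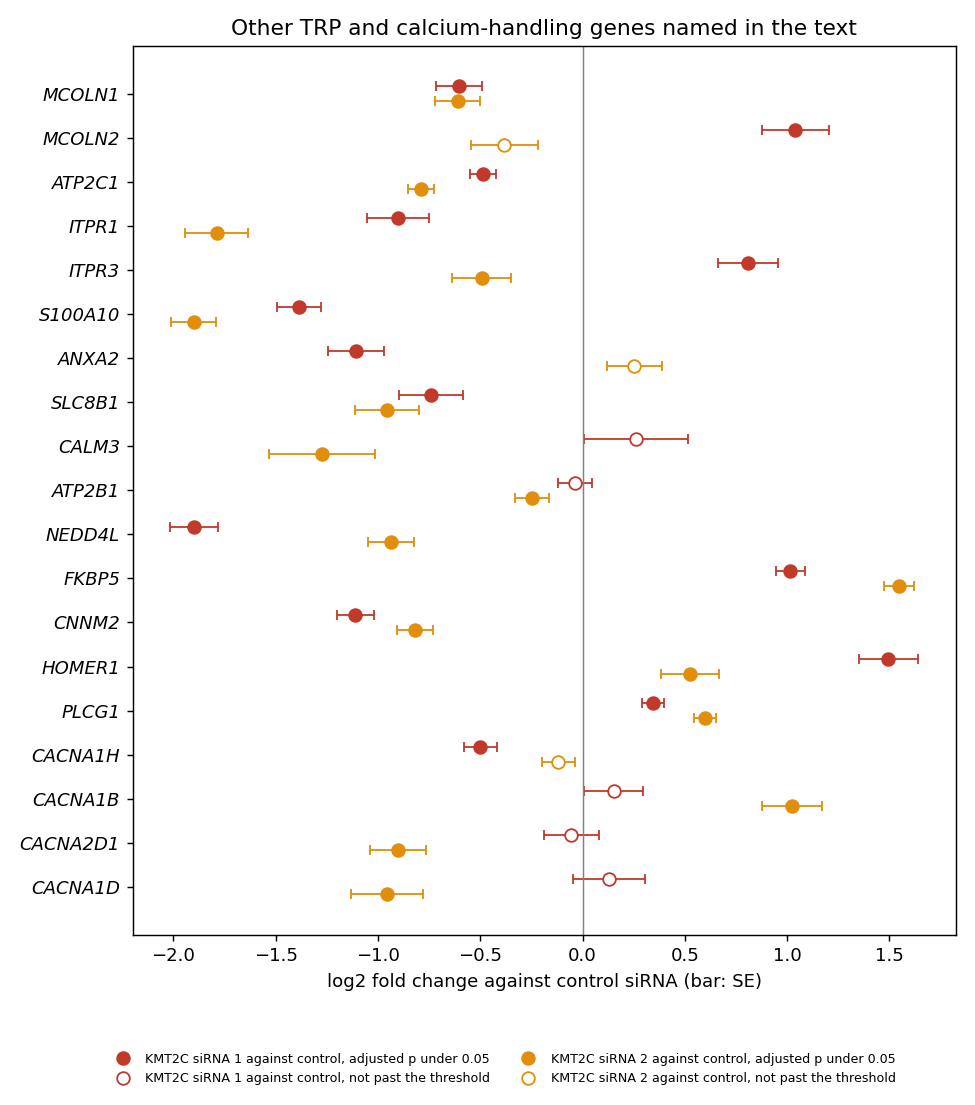
Log2 fold change with standard error against control siRNA (x axis) for the genes of the TRP-related and calcium lists that the naming rule took, voltage-gated channels included, with siRNA 1 above siRNA 2 for each gene and filled points where the adjusted p was under 0.05. S100A10 (-1.39 with siRNA 1, -1.90 with siRNA 2) and ITPR1 (-0.90 with siRNA 1, -1.79 with siRNA 2) lie left of 0 with both siRNAs, and FKBP5 (1.02 with siRNA 1, 1.55 with siRNA 2) lies right of 0.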

How the data were processed

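RNA sequencing of 9 VCaP libraries was used in the form of a single deposited gene table. Its count columns hold estimated counts made by the authors, whole numbers that were not normalized, and its other columns hold FPKM calculated by the authors, both named in the file headers. Low counts peak at 4 (11286 values, against 4677 at 3 and 2524 at 5), so about 4 counts were taken as 1 fragment. Counts of 1 (6621 values) and 2 (5430) are also common, so this is an approximation. Genes without counts are listed at 0.0001 FPKM. The submitters' processing notes list Bowtie 0.12.2 and 2 builds, hg38 and mm8, with no role for any of them. No source used here gives the counting tool, its strand setting or the annotation. GENCODE release 29 holds 58394 of the deposited identifiers, 99.98% of them overlapping the deposited span, so coordinates are on GRCh38.

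Genes with at least 1 FPKM in at least 3 libraries (12830) were tested with edgeR 4.0.16 (R 4.3.3), TMM scaling and a quasi-likelihood F test of estimated counts, rounded to whole numbers, which changed no value. All 9 libraries entered 1 fit with a mean per group. Tests were 2-sided with Benjamini-Hochberg adjustment over all tested genes at 0.05, and the common dispersion was 0.0437. SE is the log2 fold change over the square root of F. Fold changes come from this fit and percentages of control from mean FPKM. The pipeline was run on simulated counts with 200 changed genes, far fewer than were called here. That run does not check the scaling where a large share of genes changes.

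The channels, gene lists and tests were chosen with earlier results of these data known. All channels were named, and of each other list up to 4 called genes with the smallest p per siRNA. Also named were the genes that overlap a channel or copy it and the 5 genes most like TRPM8. Clone, assembly and LINC identifiers were left out when those 5 were picked. ORAI1, ORAI2, ORAI3, STIM1 and TCAF1 were named after their values were seen. Promoter windows came from RefSeq tables (GRCh38.p14). Alternatives were DESeq2 1.42.0, limma 3.58.1 on log2(FPKM + 1) and log2(FPKM + 0.1), DESeq2 size factors, upper quartile scaling, filterByExpr, no filter, the 2 groups compared alone, a replicate block, leaving out each library, and counts divided by 4, the last chosen after seeing the data.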

Additional observations from a re-analysis of the deposited data

Results flagged for a closer look

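TRPV6 and PKD2 are listed here because the effects of the 2 KMT2C siRNAs on them differed in a direct test. For TRPV6 the log2 difference of siRNA 1 minus siRNA 2 was 1.21 ± 0.14 (edgeR adjusted p = 0.000264), with the same direction against control in both. For PKD2 it was -0.61 ± 0.09 (edgeR adjusted p = 0.00114), and PKD2 passed against control with siRNA 2 only. KMT2C itself was lowered to 14.5% of the control level with siRNA 1 and to 13.1% with siRNA 2. Of all tested genes 39.5% differed between the siRNAs. What sets the siRNAs apart was not tested.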

How the results depend on the processing

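Each fold change of the 8 tested channels in the 3 comparisons was recomputed under 19 alternatives. Of these 24 results 20 stayed on the same side of the threshold throughout. TRPM4 with siRNA 2, both TRPM7 comparisons of siRNA 1 and the PKD1 difference between the siRNAs were those that did not. No result that passed in the main fit or in an alternative changed sign between them. Some results that did not pass changed sign when 1 library was left out. Examples are TRPM2 with siRNA 1 (-0.42 to 0.12) and TRPM7 with siRNA 2 (-0.08 to 0.03). TRPM8 passed in all 19 with each siRNA (log2 fold change -0.62 to -0.46 with siRNA 1 and -0.72 to -0.51 with siRNA 2), as did TRPV6 and, with siRNA 2, PKD2. The TRPV6 values were smaller with limma on log2(FPKM + 1), at -0.74 with siRNA 1, -1.24 with siRNA 2 and 0.50 between them, a scale that understates changes of low genes by construction. TRPM4 with siRNA 2 was also lost with upper quartile scaling (adjusted p = 0.0801) and with limma on log2(FPKM + 0.1) (adjusted p = 0.0504). Upper quartile scaling moved the median of all genes with siRNA 2 to a log2 fold change of 0.12, against 0.0222 with TMM. Leaving out 1 library at a time gave 2 to 3 channels called with siRNA 1, 3 to 4 with siRNA 2 and 2 to 3 between the siRNAs. Without a filter or with filterByExpr, TRPC1 passed between the siRNAs (adjusted p = 0.0395 and 0.0219). Replicate numbers showed no pairing of the libraries. Deviations of same-numbered libraries correlated at -0.0688 to 0.0393, and those of differently numbered ones at -0.0832 to 0.0912. With 3 libraries per group these correlations cannot exclude a pairing. A fit with the number as a replicate block called 5007, 6070 and 4766 genes (siRNA 1, siRNA 2 and their difference), against 5349, 6328 and 5068, and the same counts of channels. With 3 libraries per group, SEs of 0.28 for TRPM2 and 0.21 for TRPV1 limit which changes of these channels could pass.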

Other observations

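Voltage-gated calcium channels, another route of calcium entry, were mostly low in VCaP cells, and 6 of 17 listed subunit genes were tested. With siRNA 1, 1 fell and none rose, with siRNA 2, 1 rose and 2 fell, and 4 of the 6 differed between the siRNAs. Of all tested genes 41.7% were called with siRNA 1, 49.3% with siRNA 2 and 39.5% between the siRNAs. The median log2 fold change was 0.08 with siRNA 1 and -0.19 with siRNA 2. CACNA1B, the pore subunit of N-type channels, rose with siRNA 2 (log2 fold change 1.02 ± 0.15, edgeR adjusted p = 0.000459) and had 0.15 ± 0.14 with siRNA 1 (edgeR adjusted p = 0.433). The L-type pore subunit CACNA1D and the accessory subunit CACNA2D1 fell with siRNA 2 (-0.96 ± 0.18 and -0.90 ± 0.14, edgeR adjusted p = 0.00202 and 0.000687), and had 0.13 ± 0.17 and -0.05 ± 0.14 with siRNA 1 (edgeR adjusted p = 0.586 and 0.779). CACNA1D reached 1 FPKM in 4 libraries, all of siRNA 1 or control. It thus entered the test through the groups in which it was higher. The T-type pore subunit CACNA1H fell with siRNA 1 (-0.50 ± 0.08, edgeR adjusted p = 0.00135) and had -0.12 ± 0.08 with siRNA 2 (edgeR adjusted p = 0.255).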
